A study of Mus musculus with 12 samples.

Results

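The plexins, semaphorins and neuropilins described here are 10 genes of the deposited table of log2 CPM (reads of a gene scaled to the counted reads of its library), namely the plexin receptors Plxna1, Plxna2, Plxnb2, Plxnc1 and Plxnd1, the neuropilin co-receptors Nrp1 and Nrp2, and the semaphorin ligands Sema4a, Sema4b and Sema4d. They were taken by symbol, and all 10 are among the 43280 genes of the table and the 12086 that passed the filter on low values. The list was chosen by family with the changes under LPS and between genotypes in these libraries in view, and which of these values were used is not recorded. Their changes are therefore given as descriptions, and calls from the fit across all genes are no independent support for them.

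Bone marrow-derived macrophages (BMDM) were grown with M-CSF from C57BL6 mice that were wild type (wt) or deficient for the myeloid receptor gene Treml4 (Treml4-/-). Cells of each genotype received vehicle (M0) or lipopolysaccharide (LPS), a bacterial product used to polarize macrophages towards M1, for 8 h (M1-8 h) or 12 h (M1-12 h) at 100 ng/ml. Poly(A)-selected RNA of 2 biological replicates of each of the 6 groups was sequenced. The labels do not say whether replicates are separate animals or cultures, so p-values measure the spread between these libraries. The deletion is described only as Treml4-/-, and both genotypes received the same growth factor.

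Plexins are single-pass receptors whose intracellular part acts on small GTPases of the Ras family and so on integrins and the actin cytoskeleton. Membrane-bound semaphorins such as those of class 4 can bind plexins directly, whereas most secreted class 3 semaphorins need a neuropilin beside a type A plexin. In macrophages and dendritic cells these proteins are known from cell migration and from contacts with lymphocytes, and neuropilins also serve as co-receptors for vascular endothelial growth factors.

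Between 48008751 and 58500792 reads were counted on genes per library, and 1 read was worth 0.0171 to 0.0208 CPM. Treml4 had 198 to 663 reads in the 6 wt libraries and 0 reads in each of the 6 Treml4-/- libraries. Of the 7 macrophage markers listed, 6 were in the table, and their summed level was 18630.1 to 25435 CPM at M0 and 8113 to 11112 CPM under LPS. The defining T cell genes Cd3e, Cd3d and Cd3g had at most 1 read per library and Trac at most 2, but Lck, the fifth gene of the T cell list, reached 31.4 CPM. The T cell list summed to 0.309 to 0.511 CPM at M0 and 2.85 to 31.4 CPM under LPS. The 5 dendritic cell markers summed to 0.649 to 1.16 CPM at M0 and 13.8 to 27.3 CPM under LPS. Ccr7 reached 21.5 CPM and Xcr1 7.19 CPM, and Flt3, Zbtb46 and Siglech were under 1 CPM in every library. The 6 neutrophil markers summed to 32.5 to 103 CPM at M0 and 41.6 to 89.7 CPM under LPS, so these ranges overlapped. The macrophage sum was lower and the T cell and dendritic cell sums were higher under LPS than at M0, while the members moved both ways. Over all libraries Lyz2 spanned 3011 to 15208 CPM, Csf1r 1037 to 7203, Itgam 880 to 1475 and Fcgr1 59.6 to 1348. Cd68 spanned 756 to 1881 CPM and Mertk 28.9 to 302. Neither these ranges nor the macrophage sum give the direction of each marker under LPS. The part of these levels in the members' changes was not tested. In bulk RNA, fewer cells of a type and less RNA per cell cannot be told apart.

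Changes are log2 fold changes of CPM + 1 from limma with their standard errors (SE), and a gene was called changed where the change reached 1.4-fold and the p-value, adjusted after Benjamini and Hochberg, was below 0.05. Adding 1 CPM understates the change of weakly expressed genes. Counts of listed genes at an unadjusted limma p under 0.05 are given without the share of all genes at that level. They are therefore not read as a result about the lists. LPS moved the median of all 12086 genes by -0.70 to -0.77 when libraries were scaled to their totals, and by -0.03 to -0.05 with median of ratios scaling. LPS changes of the members are therefore also given relative to the median of all genes. With median of ratios scaling, 3734 genes were called higher and 3734 lower at 8 h in wt, beside 1971 and 7319 with library totals. At 12 h in Treml4-/- cells the counts were 3910 and 3929, beside 1945 and 7204. Median of ratios scaling centres the typical gene, so its median near 0 and near-even counts largely follow from the scaling itself.

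The promoters of 4 members are printed because Plxna2 and Plxnd1 had the largest falls and moved almost together over the libraries, while the paralogs Nrp1 and Nrp2 moved in opposite directions. They are RefSeq sequences of GRCm38.p6, each from 250 bases before to 50 bases after an annotated start, written 5′ to 3′ on the strand of the gene. Capitals mark motif matches, and no other letters are capitals. Plxna2 is shown from chr1:194619579-194619878 (+), Plxnd1 from chr6:115994956-115995255 (-), Nrp1 from chr8:128358823-128359122 (+) and Nrp2 from chr1:62703067-62703366 (+).
Plxna2: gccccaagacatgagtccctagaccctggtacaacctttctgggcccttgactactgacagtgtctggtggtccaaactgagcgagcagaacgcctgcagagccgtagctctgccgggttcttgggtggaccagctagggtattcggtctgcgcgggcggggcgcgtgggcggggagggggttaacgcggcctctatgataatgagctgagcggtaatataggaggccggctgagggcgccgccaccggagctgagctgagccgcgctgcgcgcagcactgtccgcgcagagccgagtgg
Plxnd1: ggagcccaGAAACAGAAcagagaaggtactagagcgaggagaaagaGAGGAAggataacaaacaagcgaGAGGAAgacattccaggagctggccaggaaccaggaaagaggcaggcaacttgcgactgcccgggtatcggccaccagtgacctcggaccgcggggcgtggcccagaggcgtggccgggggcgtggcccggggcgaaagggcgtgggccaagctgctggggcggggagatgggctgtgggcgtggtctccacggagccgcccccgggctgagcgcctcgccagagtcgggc
Nrp1: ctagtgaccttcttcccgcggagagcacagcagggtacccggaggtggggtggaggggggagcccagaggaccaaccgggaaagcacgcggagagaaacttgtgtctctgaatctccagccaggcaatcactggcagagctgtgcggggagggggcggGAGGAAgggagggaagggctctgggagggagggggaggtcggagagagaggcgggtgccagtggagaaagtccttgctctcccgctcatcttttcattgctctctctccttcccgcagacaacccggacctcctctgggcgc
Nrp2: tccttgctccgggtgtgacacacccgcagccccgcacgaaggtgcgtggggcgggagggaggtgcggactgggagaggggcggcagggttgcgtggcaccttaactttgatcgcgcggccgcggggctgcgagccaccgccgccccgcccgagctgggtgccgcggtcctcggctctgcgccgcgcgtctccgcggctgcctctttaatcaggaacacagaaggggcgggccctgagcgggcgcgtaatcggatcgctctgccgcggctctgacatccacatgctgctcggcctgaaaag

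Both strands were searched for the NF-kB motif and for TGANTCA (AP-1), GAAANNGAA (the interferon-stimulated response element, ISRE), TTCNNNGAA (the STAT motif GAS) and GAGGAA (the PU box). The Plxnd1 window held 1 ISRE match at position 9 and 2 PU boxes at positions 47 and 70, counted from the 5′ end. The Nrp1 window held 1 PU box at position 159, and the windows of Plxna2 and Nrp2 held none of these letters. Among all 32851 promoters, 8.56% held an ISRE match and 28.3% a PU box, while 8.46% held the NF-kB motif, 7.81% AP-1 and 8.30% GAS. GC content was 64.7% in Plxna2, 67.0% in Plxnd1, 64.0% in Nrp1 and 70.7% in Nrp2, beside a median of 52.7% over all promoters. RefSeq entries were matched for 9 of the 10 members, Plxna1 being the other, with 16 promoters in all. In at least 1 of their promoters, 2 of these 9 members held NF-kB, 1 held AP-1, 2 held ISRE, 0 held GAS and 5 held the PU box. These counts are per gene, over 1 or more promoters each, so they cannot be set against the shares per promoter above.

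The members spanned a wide range of levels in unstimulated cells. Per kilobase of exon, the wt M0 level was 187 ± 7.16 CPM (SD, n = 2) for Plxnb2, the highest of the 10, and 135 ± 11.04 for Sema4d. Plxnd1 (63.4 ± 5.64), Plxna1 (57.0 ± 6.15) and Nrp2 (55.2 ± 0.277) followed, and the libraries of Plxna1 overlapped those of both of its neighbours. Nrp1 stood at 26.3 ± 1.92, Sema4a at 15.6 ± 1.09 and Plxnc1 at 10.1 ± 1.398, without overlap. Plxna2 (1.97 ± 0.0335) and Sema4b (1.33 ± 0.0673) were the lowest on this scale per length. At M1-8 h the order in wt cells was led by Nrp2 at 139 ± 8.80 CPM per kilobase, above Sema4d at 99.2 ± 2.90 and Plxnb2 at 55.1 ± 3.72.

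**Figure D1:**
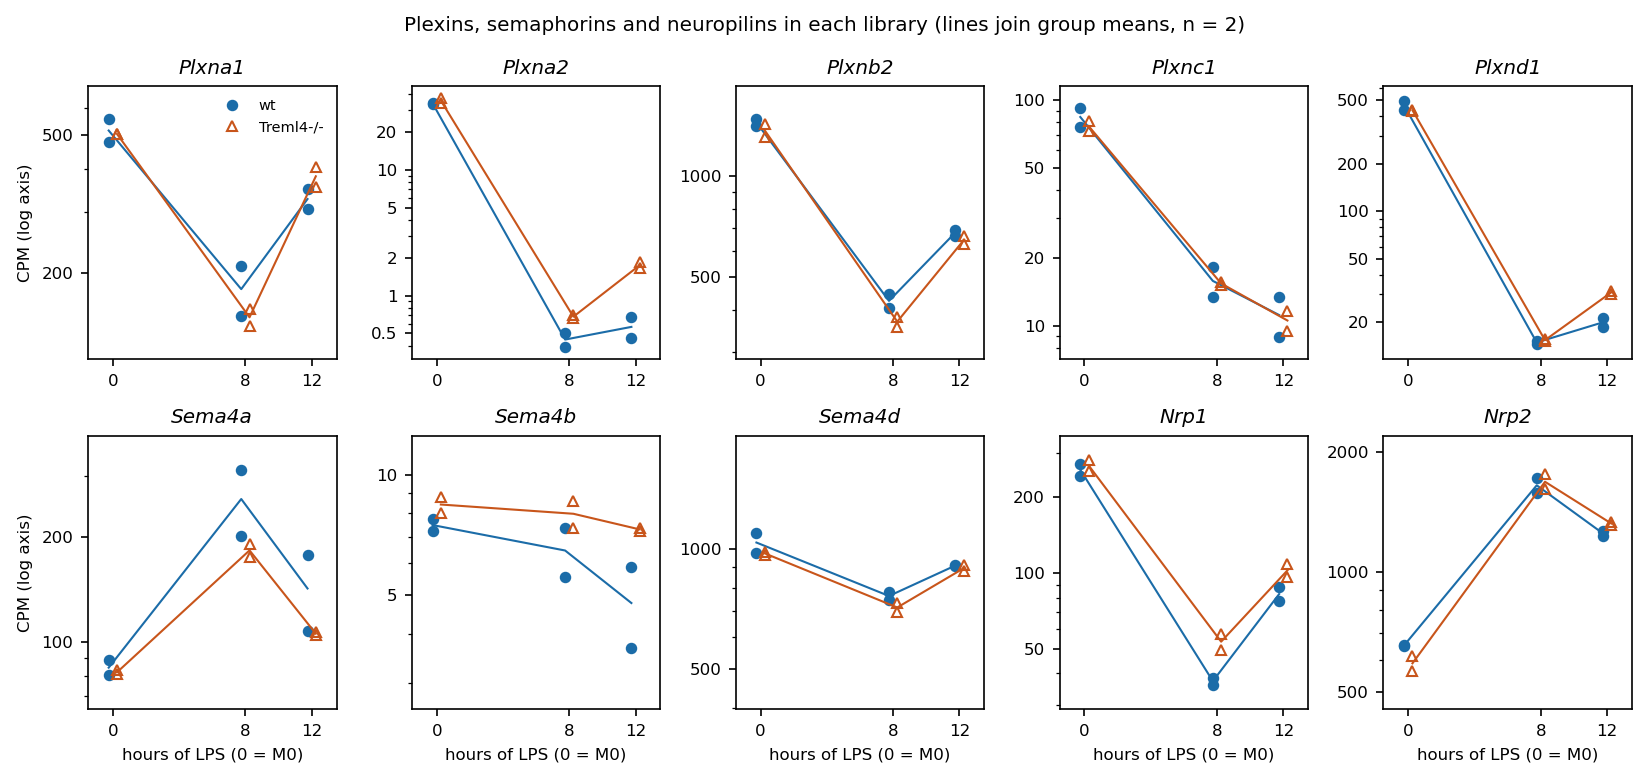
CPM of the 10 members (log axis) against hours of LPS, with 1 point per library, wt as filled circles and Treml4-/- as open triangles, and lines through group means (n = 2). Plxna2 and Plxnd1 fall furthest at 8 h, Sema4a and Nrp2 rise, and at 12 h the Treml4-/- points of Plxna2 (1.65 and 1.84 CPM) lie above the wt points (0.671 and 0.457 CPM).

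After 8 h of LPS, 6 members fell and 2 rose in each genotype. The members that fell were all 5 plexins and Nrp1, and those that rose were Sema4a and Nrp2. In wt cells this was 2 of 10 called higher beside 16.3% of all genes, and 6 of 10 called lower beside 60.6%. In Treml4-/- cells 17.7% of all genes were called higher and 58.1% lower. The share of members called lower at 8 h was thus near that of all genes. At 12 h, 2 members were called higher and 7 lower in wt cells, beside 16.2% and 60.4% of all genes. In Treml4-/- cells 1 was called higher and 5 lower at 12 h, beside 16.1% and 59.6%. These 12 h counts depend on the scaling: with median of ratios they were 3 higher and 4 lower in wt and 4 higher and 4 lower in Treml4-/- cells, where Sema4a, Sema4b and Sema4d joined Nrp2. Quantile normalization gave 2 higher and 7 lower in wt, and 3 higher and 5 lower in Treml4-/- cells. At 8 h Sema4b was also called higher in both genotypes under either scaling, and Sema4d lower with quantile normalization. The median log2 fold change of the members was -1.65 in wt and -1.82 in Treml4-/- cells at 8 h, beside -0.74 and -0.70 over all genes. At 12 h it was -0.87 and -0.75, beside -0.77 and -0.74.

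**Figure D2:**
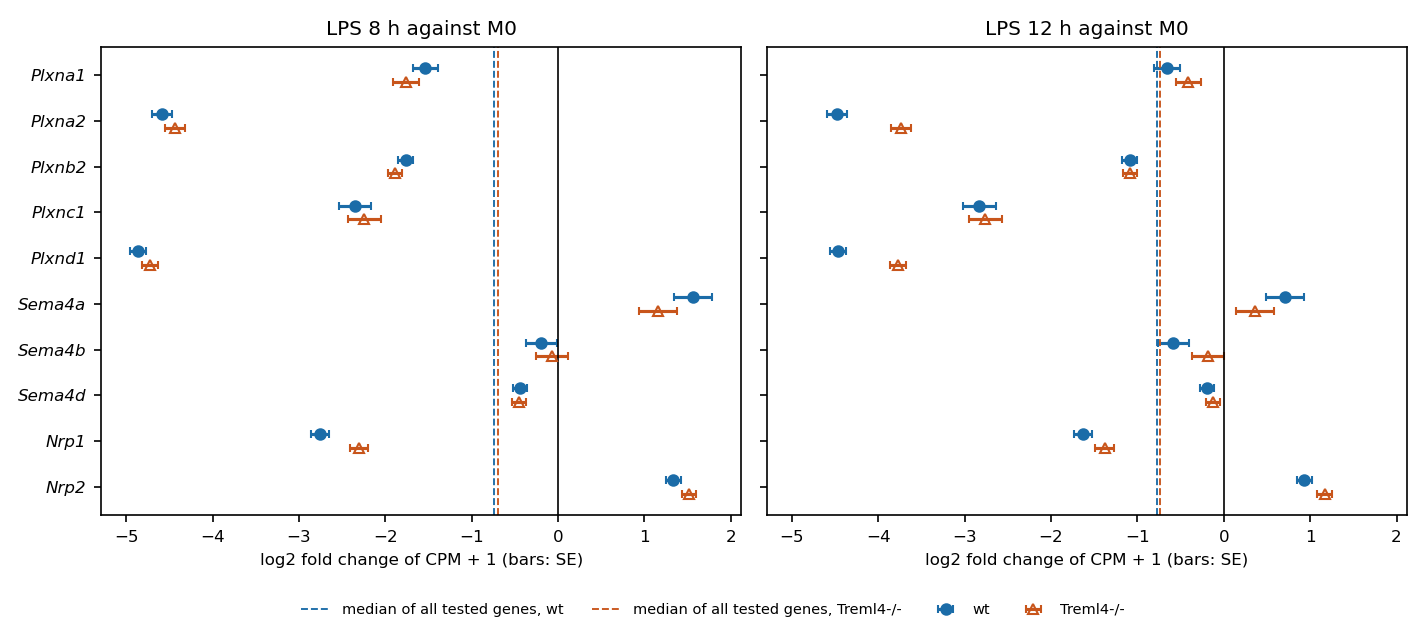
Log2 fold change of CPM + 1 under LPS against M0 for the 10 members, at 8 h (left) and 12 h (right), wt as filled circles and Treml4-/- as open triangles, with SE bars. Dashed lines are the medians of all tested genes (-0.74 in wt and -0.70 in Treml4-/- at 8 h), and Sema4d and Sema4b lie between them and 0 at 8 h.

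Plxnd1 (chr6:115954811-115995005, minus strand of GRCm38 in GENCODE M21) encodes a plexin that binds Sema3e without a neuropilin and also Sema4a. In wt libraries it stood at 434 and 492 CPM at M0, 14.6 and 15.2 after 8 h and 18.7 and 21.3 after 12 h of LPS. The Treml4-/- libraries held 437 and 429 CPM, then 15.7 and 15.2, then 30.3 and 31.5. M0 libraries lay far above all LPS libraries, and at 12 h both Treml4-/- libraries lay above both wt libraries. The log2 fold change at 8 h was -4.86 ± 0.09 (SE) in wt, or -4.12 relative to the median of all genes, and -4.72 ± 0.09 in Treml4-/- cells, or -4.03. After 12 h the value was -4.47 ± 0.09 and -3.77 ± 0.09, or -3.70 and -3.03 relative to all genes.

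Plxna2 (chr1:194618218-194816869, plus strand) encodes a type A plexin that serves class 3 semaphorins through neuropilins and binds Sema6a. It had 34.2 and 33.4 CPM in wt M0 libraries, 0.505 and 0.390 after 8 h and 0.671 and 0.457 after 12 h of LPS. In Treml4-/- cells it had 33.9 and 37.1 CPM at M0, 0.701 and 0.659 after 8 h and 1.65 and 1.84 after 12 h of LPS. Its M0 libraries and both Treml4-/- libraries at 12 h reached the 1 CPM of the filter on low values and its other LPS libraries did not, and 21 to 35 reads remained in the wt libraries under LPS. The wt mean at 8 h was 1.32% of that at M0, a 75.5-fold fall in CPM. The fitted log2 fold change, held back by the added 1 CPM, was -4.59 ± 0.12 in wt and -4.44 ± 0.12 in Treml4-/- cells at 8 h, or -3.84 and -3.74 relative to the median of all genes. After 12 h it was -4.48 ± 0.12 and -3.73 ± 0.12, or -3.71 and -2.99 relative to all genes.

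Plxnb2 (chr15:89155549-89180788, minus strand), a receptor for class 4 semaphorins, was the most abundant plexin per length. Its libraries held 1406 and 1484 CPM in wt M0, 405 and 446 after 8 h and 694 and 665 after 12 h of LPS. The Treml4-/- values were 1427 and 1312, then 382 and 357, then 626 and 662 CPM. The 3 time points did not overlap in either genotype, with the lowest level at 8 h. Its fitted log2 change was -1.76 ± 0.09 in wt and -1.89 ± 0.09 in Treml4-/- cells at 8 h, or -1.02 and -1.19 relative to all genes. At 12 h it was -1.09 ± 0.09 in both genotypes, or -0.32 and -0.35 relative to all genes, and it was not called with median of ratios scaling (-0.21, adjusted p 0.111, and -0.26, adjusted p 0.0582).

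Plxna1 (chr6:89316314-89362620, minus strand), which forms a receptor complex for Sema6d with Trem2 and its adaptor Tyrobp, behaved like Plxnb2 in time. It had 477 and 555 CPM in wt M0 libraries, 149.5 and 209 after 8 h and 305 and 349 after 12 h of LPS. Cells of the Treml4-/- genotype had 505 and 504 CPM, then 141 and 157, then 355 and 406. Within each genotype the 8 h libraries were the lowest and the 12 h libraries lay between them and M0. The log2 fold change at 8 h was -1.54 ± 0.15 in wt and -1.76 ± 0.15 in Treml4-/- cells, or -0.79 and -1.06 relative to all genes. After 12 h the value was -0.66 ± 0.15 in wt, a called fall, and -0.41 ± 0.15 in Treml4-/- cells, which was not called. Relative to all genes the 12 h values were 0.11 and 0.33, and with median of ratios scaling they were 0.22 and 0.42, so the direction at 12 h depends on the scaling. Without Treml4-/- M1-12 h replicate 2 the Treml4-/- value was -0.51 and was called. The exons of Plxna1 overlap the antisense gene Gm26811 over 970 bases, 10.7% of their length. Whether the counting used strand is not given in the sources used here, so reads there cannot be assigned with certainty. Gm26811 itself had at most 10 reads in any library.

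Plxnc1 (chr10:94790866-94944835, minus strand), the receptor of Sema7a, was the member plexin with its lowest mean at 12 h in both genotypes. Its wt libraries held 92.6 and 76.1 CPM at M0, 13.4 and 18.2 after 8 h and 8.88 and 13.4 after 12 h of LPS. The Treml4-/- libraries held 72.9 and 80.9, then 15.7 and 15.1, then 11.6 and 9.46 CPM. M0 did not overlap LPS in either genotype, and the 8 h and 12 h libraries lay apart in Treml4-/- cells and met at 13.4 CPM in wt cells. Expressed as log2 fold change, the difference from M0 was -2.35 ± 0.19 and -2.25 ± 0.19 at 8 h in wt and Treml4-/- cells, or -1.61 and -1.55 relative to all genes. At 12 h it was -2.83 ± 0.19 and -2.76 ± 0.19, or -2.06 and -2.02 relative to all genes. Outside the members, Plxna4 and Plxnb3 also had their lowest means at 12 h in both genotypes.

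Nrp1 (chr8:128358604-128503363, plus strand) encodes a co-receptor for class 3 semaphorins and vascular endothelial growth factor. Its wt libraries held 271 and 244 CPM at M0, 38.5 and 36.1 after 8 h and 77.5 and 87.8 after 12 h of LPS. In Treml4-/- cells it had 255 and 281, then 57.2 and 49.8, then 109 and 96.5 CPM. The lowest level was at 8 h, and under LPS both Treml4-/- libraries lay above both wt libraries at each time. The log2 fold change was -2.75 ± 0.11 in wt and -2.31 ± 0.11 in Treml4-/- cells at 8 h, or -2.01 and -1.61 relative to all genes. After 12 h the value was -1.63 ± 0.11 and -1.38 ± 0.11, or -0.86 and -0.64 relative to all genes.

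Nrp2 (chr1:62703285-62818695, plus strand), the paralog of Nrp1 with preferences for other class 3 semaphorins and for VEGF-C, moved the other way. It had 651 and 656 CPM in wt M0 libraries, 1724 and 1576 after 8 h and 1266 and 1231 after 12 h of LPS. Cells of the Treml4-/- genotype had 565 and 613, then 1758 and 1611, then 1331 and 1315 CPM. No time points overlapped in either genotype, and 8 h was the highest. On the log2 scale the change at 8 h was 1.33 ± 0.08 in wt and 1.52 ± 0.08 in Treml4-/- cells, or 2.08 and 2.21 relative to all genes. At 12 h it was 0.93 ± 0.08 and 1.17 ± 0.08, or 1.70 and 1.91 relative to all genes. Over the 12 libraries Pearson's r between Nrp1 and Nrp2 was -0.96, a description of points that share libraries and the LPS contrast.

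Sema4a (chr3:88435959-88461182, minus strand), a membrane-bound ligand of B-type plexins and Plxnd1 with a known part in T cell priming, rose at 8 h in both genotypes. Its wt libraries held 80.4 and 88.8 CPM at M0, 203 and 313 after 8 h and 107 and 178 after 12 h of LPS. The Treml4-/- libraries held 80.9 and 83.1, then 192 and 176, then 107 and 105 CPM. All M1 libraries lay above all M0 libraries, and the wt replicates under LPS were far apart. The log2 fold change at 8 h was 1.56 ± 0.22 in wt and 1.15 ± 0.22 in Treml4-/- cells, or 2.31 and 1.85 relative to all genes. After 12 h the value was 0.70 ± 0.22 in wt, a called rise, and 0.37 ± 0.22 in Treml4-/- cells, which was not called with library totals but was with median of ratios scaling (1.18) and quantile normalization (0.69). Relative to all genes the 12 h values were 1.47 and 1.10. The wt call at 12 h was lost without wt M0 replicate 1 (0.63, adjusted p 0.0587) or without wt M1-12 h replicate 2 (0.34, adjusted p 0.137).

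Sema4d (chr13:51685529-51793747, minus strand), also known as CD100, a ligand of B-type plexins and of CD72, was abundant in all libraries. It had 977 and 1097 CPM in wt M0 libraries, 746 and 778 after 8 h and 909 and 907 after 12 h of LPS. In Treml4-/- cells it had 966 and 983, then 732 and 694, then 879 and 909 CPM. The 8 h libraries were the lowest in both genotypes without overlap with M0, but no LPS change was called. Its fitted log2 change was -0.44 ± 0.08 and -0.45 ± 0.08 at 8 h and -0.19 ± 0.08 and -0.12 ± 0.08 at 12 h in wt and Treml4-/- cells. Relative to all genes it was 0.30 and 0.25 at 8 h and 0.58 and 0.61 at 12 h. With median of ratios scaling the 12 h values were 0.69 and 0.70 and were called higher, whereas with quantile normalization the 8 h values (-0.83 and -0.74) and the wt 12 h value (-0.54) were called lower, so no direction can be given. The 8 h change was also called lower without wt M0 replicate 1 in wt (-0.53) and without Treml4-/- M1-8 h replicate 1 in Treml4-/- cells (-0.49).

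Sema4b (chr7:80186841-80226527, plus strand), another membrane-bound class 4 semaphorin, was the weakest ligand of the list. Its wt libraries held 7.21 and 7.75 CPM at M0, 7.37 and 5.55 after 8 h and 5.87 and 3.67 after 12 h of LPS. The Treml4-/- libraries held 8.82 and 8.03, then 8.62 and 7.35, then 7.25 and 7.34 CPM. The 8 h libraries overlapped those of M0 in both genotypes, and the 12 h libraries lay below M0. The log2 fold change was -0.20 ± 0.18 and -0.07 ± 0.18 at 8 h, and at 12 h it was -0.58 ± 0.18 in wt, which was called, and -0.18 ± 0.18 in Treml4-/- cells. Relative to all genes these 4 values were 0.55, 0.62, 0.19 and 0.56, so the direction depends on the scaling. The wt call at 12 h was lost without wt M1-12 h replicate 2 (-0.30, adjusted p 0.125).

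From 8 h to 12 h, Plxna1, Plxnb2 and Nrp1 rose again in both genotypes and Sema4a fell back. In wt cells 3 of the 10 members were called higher and 1 lower, beside 14.0% and 17.6% of all genes. In Treml4-/- cells 5 were called higher and 2 lower, beside 12.9% and 19.4%. The rise was 0.88 ± 0.15 and 1.35 ± 0.15 for Plxna1, 0.67 ± 0.09 and 0.80 ± 0.09 for Plxnb2 and 1.12 ± 0.11 and 0.93 ± 0.11 for Nrp1 in wt and Treml4-/- cells. The median of all genes moved by -0.04 and -0.08 between these times.

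Plxna2 and Plxnd1 were called higher at 12 h than at 8 h in Treml4-/- cells and not in wt cells. Plxna2 changed by 0.11 ± 0.12 in wt and rose by 0.71 ± 0.12 in Treml4-/- cells. In wt Plxnd1 rose by 0.40 ± 0.09, below the 1.4-fold of a call, and was called without wt M1-12 h replicate 1 (0.49). In Treml4-/- cells it rose by 0.96 ± 0.09. The difference between the genotypes in this change was -0.60 ± 0.16 for Plxna2 and -0.56 ± 0.13 for Plxnd1. It was not called for either gene by limma (Benjamini-Hochberg adjusted p 0.948 for both), a comparison that was added after the values were seen. No member and 0.00% of all genes were called in it, with 3 members at an unadjusted p under 0.05.

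Sema4a fell by 0.86 ± 0.22 from 8 h to 12 h in wt and by 0.79 ± 0.22 in Treml4-/- cells. The wt call was lost without wt M1-12 h replicate 1 (-0.50, adjusted p 0.0818) or without wt M1-8 h replicate 2 (-0.55, adjusted p 0.0772). The Treml4-/- call was lost without Treml4-/- M1-8 h replicate 1 (adjusted p 0.0624), M1-12 h replicate 1 (0.0534) or M1-12 h replicate 2 (0.0654). Plxnc1 fell by 0.51 ± 0.19 in Treml4-/- cells at an adjusted p of 0.0462, and this call was lost without any 1 of the 6 Treml4-/- libraries, at adjusted p-values of 0.0575 to 0.259. In wt cells Plxnc1 changed by -0.48 ± 0.19, and this was called without wt M1-8 h replicate 1 (-0.68) or wt M1-12 h replicate 2 (-0.75). The Sema4b change in wt, -0.39 ± 0.18, was called without wt M1-12 h replicate 1 (-0.66).

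Between genotypes the members differed little before LPS. At M0 the log2 fold changes of wt relative to Treml4-/- cells lay between -0.15 (Sema4b) and 0.15 (Nrp2), with SE of 0.08 to 0.22. No member was called by limma, beside 0.0993% of all genes, and 0 of the 10 had an unadjusted p under 0.05 or were called by voom. At M1-8 h no member was called either, beside 0.0910% of all genes, with 2 members at an unadjusted p under 0.05 and 0 called by voom. These were Nrp1 (-0.51 ± 0.11, limma, Benjamini-Hochberg adjusted p 0.11) and Plxnb2 (0.20 ± 0.09, adjusted p 0.217). Nrp1 was called in 1 alternative, a replicate block within each time point crossed at M0 that was added after the data were seen (-0.51, limma adjusted p 0.0302). That setting called 421 genes in all at M1-8 h, beside 11 in the fit reported here and 13 with the block not crossed. The Nrp1 libraries at M1-8 h did not overlap, with 38.5 and 36.1 CPM in wt and 57.2 and 49.8 CPM in Treml4-/- cells.

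At M1-12 h, Plxna2 and Plxnd1 were called lower in wt than in Treml4-/- cells, which is 2 of 10 members beside 0.132% of all genes. Plxna2 had 0.671 and 0.457 CPM in wt and 1.65 and 1.84 CPM in Treml4-/- cells, from 35 and 23 reads against 79 and 106. The means differed 3.09-fold in CPM, and the log2 fold change of CPM + 1 was -0.81 ± 0.12 (limma, Benjamini-Hochberg adjusted p 0.0241). Plxnd1 had 18.7 and 21.3 CPM in wt and 30.3 and 31.5 CPM in Treml4-/- cells, which gave a log2 value of -0.60 ± 0.09 (limma, Benjamini-Hochberg adjusted p 0.0418). Neither gene's genotypes overlapped at this time.

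These calls rest on few libraries. Plxna2 was called in 10 of 22 alternative settings, with log2 fold changes of -1.64 to -0.71, and Plxnd1 in 6 of 22, with -0.70 to -0.50. The direction was the same in all of these settings. They include a replicate block within each time point and its form crossed at M0, both added after the data were seen. Plxna2 was not called without any 1 of the 6 Treml4-/- libraries or without wt M1-12 h replicate 2, with adjusted p-values of 0.0541 to 0.295. Plxnd1 was not called without any 1 library other than the 2 of wt M0, with adjusted p-values of 0.0542 to 0.388. Voom on the recovered reads called neither (adjusted p 0.0644 and 0.0811).

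**Figure D3:**
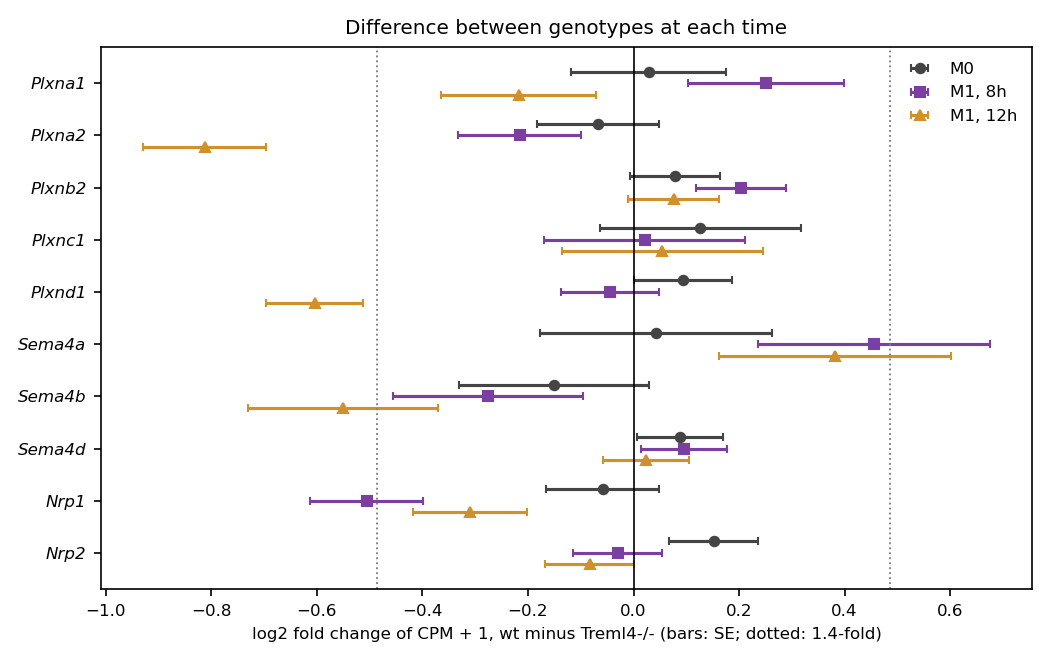
Log2 fold change of CPM + 1 of wt relative to Treml4-/- cells for the 10 members at M0 (circles), M1-8 h (squares) and M1-12 h (triangles), with SE bars and dotted lines at a 1.4-fold change. Plxna2 (-0.81) and Plxnd1 (-0.60) at 12 h lie beyond the lower line and were called, whereas Nrp1 at 8 h (-0.51) and Sema4b at 12 h (-0.55) lie beyond it and were not.

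Among the other members at M1-12 h, Sema4b was -0.55 ± 0.18 (adjusted p 0.439), with 5.87 and 3.67 CPM in wt against 7.25 and 7.34 CPM in Treml4-/- cells. Nrp1 was -0.31 ± 0.11 (adjusted p 0.48), and Sema4a was 0.38 ± 0.22 (adjusted p 0.791). Over the 3 time points together no member was called, beside 0.414% of all genes. An unadjusted limma p under 0.05 was reached by 6 members, a count without the share of all genes beside it. Plxna2 was nearest, at -0.37 ± 0.07 with an adjusted p of 0.0405 but a fold change under 1.4, and voom called it (-0.77).

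Whether the response to LPS differed between genotypes was tested as the difference itself, and no member was called. For the 8 h response no member and 0.00827% of all genes were called, with 1 member, Nrp1, at an unadjusted p under 0.05 (-0.45 ± 0.15, adjusted p 0.729). For the 12 h response no member and 0.00827% of all genes were called either. Here Plxna2 (-0.75 ± 0.16) and Plxnd1 (-0.70 ± 0.13) had unadjusted p-values under 0.05 and adjusted p-values of 0.999. Voom called no member in either test.

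The other genes of these families were mostly weak in these cells. Of 21 further plexins and semaphorins, all were in the table and 9 passed the filter on low values. The 12 that did not included Plxnb1 with at most 9 reads, Sema3a with at most 4 and Sema3e, the ligand of Plxnd1, with at most 2 reads per library. Of the 9, Plxna3, Plxna4, Plxnb3 and Sema6d passed through their M0 libraries and Sema4f and Sema7a through their LPS libraries, so changes in these 6 follow from how they passed.

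In wt cells at 8 h, 4 of the 9 were called higher and 5 lower, beside 16.3% and 60.6% of all genes, and these counts include the 6 genes just named. Sema6b, a ligand of type A plexins, had 28.7 and 23.1 CPM at M0 and 3.77 and 3.69 at M1-8 h in wt, and 28.5 and 28.7 against 4.05 and 4.23 in Treml4-/- cells. Sema6b changed by a log2 value of -2.50 ± 0.13 and -2.53 ± 0.13, or -1.75 and -1.83 relative to all genes. The secreted ligand Sema3c rose by 1.84 ± 0.16 in both genotypes, or 2.59 and 2.54 relative to all genes. Sema4c rose by 1.09 ± 0.12 in wt and 0.87 ± 0.12 in Treml4-/- cells, or 1.83 and 1.56 relative to all genes. Sema7a, the ligand of Plxnc1, had 0.251 and 0.0393 CPM in wt at M0 and 4.28 and 4.55 at M1-8 h, a rise of 2.25 ± 0.17, or 2.99 relative to all genes. Among type A plexins, Plxna3 fell by 1.64 ± 0.11 and Plxna4 by 1.05 ± 0.14 in wt, or -0.90 and -0.31 relative to all genes. Plxnb3 fell by 1.41 ± 0.13, or -0.67 relative to all genes. Sema4f rose by 1.56 ± 0.15 and Sema6d fell by 1.35 ± 0.10, or 2.31 and -0.61 relative to all genes. At 12 h in wt 3 of the 9 were called higher and 5 lower, beside 16.2% and 60.4% of all genes, and in Treml4-/- cells 1 was higher and 5 lower, beside 16.1% and 59.6%. With median of ratios scaling or quantile normalization 4 were called higher and 5 lower at 12 h in each genotype.

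Sema3c was the 1 gene of these 9 called between genotypes, over the 3 time points together. Its wt libraries held 3.18 and 2.32 CPM at M0, 12.2 and 12.5 after 8 h and 5.95 and 5.38 after 12 h of LPS. The Treml4-/- libraries held 5.30 and 4.51, then 18.5 and 22.0, then 7.94 and 6.06 CPM. At each time both Treml4-/- libraries lay above both wt libraries. Between wt and Treml4-/- cells the log2 fold change was -0.53 ± 0.09 with a limma Benjamini-Hochberg adjusted p of 0.0334, it was called in 9 of 19 alternative settings, and the adjusted p ranged from 0.0107 to 0.13.

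**Figure D4:**
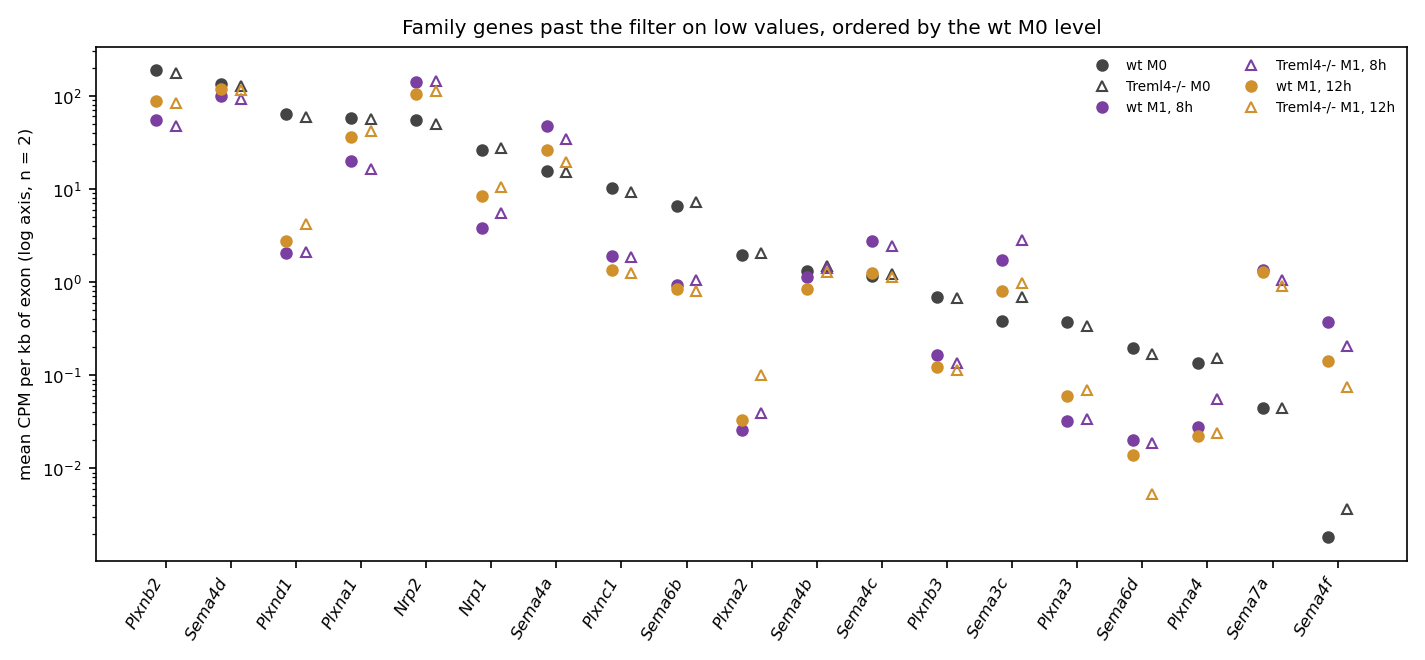
Mean CPM per kilobase of exon (log axis, n = 2) of the 19 family genes past the filter on low values, ordered by their wt M0 level, with circles for wt and triangles for Treml4-/- cells and colours for the time points. Plxnb2 is the highest at M0 (187 CPM per kilobase in wt), and Nrp2, Sema4a, Sema3c, Sema4c, Sema7a and Sema4f lie above their M0 level at 8 h.

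Among partners of these proteins, 14 of 18 listed receptors, co-receptors and ligands were tested, of which 6 were called higher and 6 lower at 8 h in wt cells, beside 16.3% and 60.6% of all genes. With median of ratios scaling these counts were 8 and 3. Flt4, named after its values were seen, passed the filter through its LPS libraries alone. Its wt means were 0.0783 CPM at M0 and 3.68 CPM at M1-8 h, so its change follows from how it passed. Kdr, the receptor through which neuropilins take part in the response to vascular endothelial growth factor, had 6.85 and 6.61 CPM in wt M0 libraries, 87.1 and 107 after 8 h and 235 and 171 after 12 h of LPS. Its log2 fold change was 3.66 ± 0.15 and 3.36 ± 0.15 at 8 h and 4.71 ± 0.15 and 4.75 ± 0.15 at 12 h in wt and Treml4-/- cells, or 4.404, 4.05, 5.47 and 5.49 relative to all genes. Kdr is also an endothelial marker. Of the other 5 endothelial genes listed, Vwf had 8.40 to 107 CPM and Cdh5 0.177 to 2.93 CPM, while Tie1 had at most 10 reads and Tek and Emcn at most 1 read per library. With Kdr, the 6 genes summed to 87.7 to 114 CPM at M0, 97.4 to 121 CPM at M1-8 h and 204 to 309 CPM at M1-12 h. Kdr itself was a small part of this sum at M0 and most of it under LPS. The other 5 genes, mainly Vwf, were thus together lower under LPS than at M0, unlike Kdr. The part of these genes in the Kdr change was not tested. Itga1, a subunit of an integrin that binds Sema7a, rose by 2.19 ± 0.12 and 2.72 ± 0.12 at 8 h, or 2.93 and 3.41 relative to all genes. Met, a kinase that associates with B-type plexins, rose by 3.18 ± 0.12 and 3.34 ± 0.12 at 12 h, or 3.95 and 4.08 relative to all genes.

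Trem2 and Tyrobp, the partners of Plxna1, are named after their values were seen. Trem2 had 942 and 1177 CPM in wt M0 libraries, 276 and 286 after 8 h and 119 and 136 after 12 h of LPS. Tyrobp had 1224 and 1562, then 583 and 633, then 467 and 513 CPM. Both stood lower at 12 h than at 8 h, whereas Plxna1 was higher at 12 h than at 8 h. The step was smaller for Tyrobp, with means of 608 and 490 CPM in wt and 516 and 473 CPM in Treml4-/- cells. The log2 fold change of Trem2 in wt was -1.90 ± 0.12 at 8 h and -3.04 ± 0.12 at 12 h, or -1.16 and -2.27 relative to all genes.

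Of 30 genes of plexin signalling, 25 were tested, and in wt cells at 8 h 3 were called higher and 14 lower, beside 16.3% and 60.6% of all genes, which is near the share of all genes. With median of ratios scaling these counts were 7 and 8. The 2 with the largest changes at both times were Mical3 and Mical1, of a family of monooxygenases that act on actin and bind plexins. Mical3 had 48.4 and 40.0 CPM in wt at M0, 1.35 and 1.82 after 8 h and 4.62 and 3.75 after 12 h of LPS, with log2 fold changes of -4.13 ± 0.14 and -3.12 ± 0.14. Mical1 had 96.3 and 107 CPM at M0, 16.3 and 16.2 after 8 h and 18.6 and 16.3 after 12 h of LPS, with -2.57 ± 0.11 and -2.47 ± 0.11. Relative to all genes these changes were -3.38 and -1.82 at 8 h and -2.35 and -1.71 at 12 h. At 12 h in wt 3 of the 25 were called higher and 16 lower, beside 16.2% and 60.4% of all genes. The median of the 25 was -0.72, beside -0.77 over all genes. Of these 25, Rhod and Mras, named after their values were seen, passed the filter through their M0 libraries alone. Their changes at 8 h and 12 h therefore follow from how they passed. No partner or signalling gene was called between genotypes at M0, 8 h or 12 h. At these times 1, 4 and 1 of the 14 partners had an unadjusted limma p under 0.05. Among the 25 signalling genes there were 1, 6 and 3, and the share of all genes is not given beside these counts.

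Plxna2 and Plxnd1 had a Pearson's r of 0.997 between their log2(CPM + 1) values over the 12 libraries, which share the LPS contrast. Outside the lists, the 3 genes most like Plxna2 over these libraries were Bsn (r = 0.999), Ctns (0.998) and Galnt12 (0.997). Those most like Plxnd1 were Nt5dc3, Dagla and Mavs (0.999 each). Bsn had mean levels of 37.1 CPM in wt at M0, 0.650 after 8 h and 0.985 after 12 h of LPS, and 2.05 at M1-12 h in Treml4-/- cells. Its genotype difference at 12 h, -0.62, was not called, nor was that of Dagla, -0.35. These likenesses describe libraries that share LPS time, and 12 points cannot set these genes apart from others that fell steeply with LPS.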

How the data were processed

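The members and gene lists were chosen with earlier results of these data known. Values were deposited by the authors as log2 CPM per gene, made with STAR and Subread within the CCBR workflow, on mm10 per the submitters' processing notes, and the annotation and strand setting of the counting are not given in the sources used here. CPM had been planned for, so the log2 values were converted: with the prior of 0.25 reads that they carry, 100% of values gave whole reads within 0.01 reads. Reads were rescaled to library totals and analysed as log2(CPM + 1) in limma 3.58.1 (R 4.3.3), with 1 mean per group over all 12 libraries, for the 12086 genes that reached 1 CPM in 2 or more libraries. A call needed a Benjamini-Hochberg adjusted p under 0.05 over all these genes and a 1.4-fold change. Each library held 48008751 to 58500792 reads, so 3 reads, the limit for a count of 0, were 0.0513 to 0.0625 CPM, which covers counting error only.

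Named were all members, the rest of their families past the filter, the 2 called genes of each other list with the largest change per LPS time, any gene of these lists called between genotypes, and the 3 genes most like each member so called. Other names are said to be chosen after their values were seen. Alternatives were other pseudocounts, filters and scalings, voom on the recovered reads, a replicate block, fits on the compared libraries alone, and each library left out. The fits were run on simulated data with changes in few genes and an even spread. These libraries differ in both respects, so that run does not test the fits under such conditions. Positions are from GENCODE M21 (GRCm38) and promoters from RefSeq GRCm38.p6. Scripts used Python 3.11.15, numpy 2.4.6 and pandas 2.3.3.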

Additional observations from a re-analysis of the deposited data

How the results depend on the processing

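Of 58 member results called in any setting, 44 were called as reported, and over the alternatives 1156 values kept direction and call, 50 lost the call, 15 gained one and 15 reversed. The 2 members called between genotypes at M1-12 h became 0 with no filter on low values or with voom. The count was also 0 with only the libraries compared or a block within each time point. It was 1 with median of ratios scaling, quantile normalization or the pairing crossed at M0. The block within each time point and its crossed form were added after seeing the data. With a replicate block across time points the count was 2. Replicate numbers were treated as shared only, since not all pairs of groups deviated together: correlations of deviations between same-numbered wt and Treml4-/- libraries were -0.26 at M0, 0.30 at 8 h and 0.06 at 12 h. Within wt they were 0.12 (M0 with 8 h), 0.06 (M0 with 12 h) and 0.41 (8 h with 12 h), and within Treml4-/- 0.46, -0.20 and -0.27 in the same order. The replicate block removed 1 member call, that of Plxnc1 from 8 h to 12 h in Treml4-/- cells, where the count went from 7 to 6. With the Treml4-/- numbers crossed at M1-12 h, also added after seeing the data, the LPS counts in Treml4-/- cells stayed at 6 against M0 and 7 against 8 h. At M1-8 h the count between genotypes went from 0 to 1 (Nrp1) with the crossed pairing, where the count over all genes went from 11 to 421. Over the 3 time points the count of members went from 0 to 1 with a pseudocount of 0.1 or voom. Leaving out 1 library gave 0 to 2 members at M1-12 h between genotypes. Under LPS it gave 8 to 9 at 8 h in both genotypes, 7 to 9 at 12 h in wt and 6 to 7 in Treml4-/- cells, and from 8 h to 12 h 3 to 5 and 5 to 7. With median of ratios scaling, reversed values were 0.22 and 0.42 for Plxna1 at 12 h, 0.40 and 0.30 (8 h) and 0.69 and 0.70 (12 h) for Sema4d, and 0.54, 0.59, 0.16 and 0.54 for Sema4b, in wt and Treml4-/- cells in turn. With quantile normalization Sema4b was at 0.79, 0.87, 0.45 and 0.84, and without 1 Treml4-/- M1-8 h library its 8 h value in that genotype was -0.17 (replicate 1) or 0.030 (replicate 2). The cause was not tested. Plxna2 under LPS rests on 21 to 106 reads per library, which limits its precision.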
